A study of Mus musculus with 10 samples.

Results

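Sphingomyelin and ceramide are made, rebuilt and broken down by a small set of enzymes, and 10 of their genes were followed here in mouse tissue labelled as jejunum, the middle of the small intestine: Sptlc1, Sptlc2, Degs2, Cers2, Cers5, Cers6, Sgms1, Sgms2, Enpp7 and Asah2. They were chosen by function, as sphingolipid enzymes, with earlier results of these data known. All 10 were measured, among 22180 genes in all. There were 2 groups of 5 arrays, all from female mice aged 10 to 12 weeks. The labels do not say that each array is a separate animal, so n counts arrays and the spread behind the p-values may be technical. Every mouse carried loxP-flanked alleles of Pcyt1a (Pcyt1aLoxP/LoxP) and received tamoxifen for 5 days. The knockout group also carried VilCreERT2, a Cre recombinase that tamoxifen switches on and that is made where villin is active, in gut epithelial cells. The controls had no Cre, so effects of Cre activity and of Pcyt1a loss cannot be told apart. All mice ate high fat diet for 3 days, fasted overnight and ate the diet again for 2 hours before a 3 cm piece of jejunum was taken. The whole piece was used, including cells in which villin is not active.

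Pcyt1a encodes CTP:phosphocholine cytidyltransferase alpha, the regulated enzyme of phosphatidylcholine (PC) synthesis. Sphingolipid synthesis starts when serine palmitoyltransferase joins serine to palmitoyl-CoA. Ceramide synthases then attach a fatty acid, and desaturation or hydroxylation of the product gives ceramide or phytoceramide. Sphingomyelin synthases move phosphocholine from PC onto ceramide and release diacylglycerol, which ties sphingomyelin to the supply of PC. In the gut lumen, sphingomyelin from the diet and from bile is digested by enzymes of the enterocyte brush border, and the sphingosine released is taken up by the cell. The comparison asks whether transcripts of these enzymes differ when Pcyt1a is targeted. Neither PC nor any sphingolipid was measured here.

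Values below are log2 intensities, and a difference is knockout minus control on that scale with its standard error (SE). Pcyt1a itself was at 7.58, 7.47, 7.58, 7.24 and 7.66 in knockouts 1 to 5 and at 9.14, 9.27, 8.95, 9.23 and 9.51 in controls 1 to 5. It was lower in every knockout array, by 3.27-fold (limma adjusted p = 6.51e-05; two-sided exact permutation p = 0.00794, the smallest possible with 5 against 5 arrays). Transcripts of villin (Vil1, 12.24 to 12.51 in knockout and 12.29 to 12.53 in control) and of lactase (Lct, 11.36 to 12.20 and 12.39 to 12.77), markers of absorptive enterocytes, were bright on all arrays. Lct was lower in every knockout array than in any control, with a difference of -0.72 (SE 0.15, adjusted p = 0.0640). Genes of the distal intestine differed between arrays. Fabp6, the ileal bile acid binding protein, was at 11.20, 8.59, 9.46 and 10.25 in knockouts 2, 3, 4 and 5, against 4.31 in knockout 1 and 4.36 to 5.38 in controls. The mean of 9 ileum genes, each centred on its own mean, lay at 0.55 to 0.98 in those 4 knockouts, at -1.02 in knockout 1 and at -0.67 to -0.06 in controls, with 7 of 9 genes higher in the knockout group and 0 called. The summed intensity of the ileum list overlapped, at 5941 to 15375 in knockout and 9879 to 12775 in control. Slc10a2, the ileal bile acid transporter, was at 9.16, 7.88, 9.03 and 10.35 in knockouts 2 to 5, 5.14 in knockout 1 and 5.19 to 7.97 in controls. The labels place every piece at the middle of the small intestine. Whether all pieces came from the same level was not tested, and this applies to every difference below. Knockout 1 stood apart from the rest of its group, and each member's difference is also given without it. Enteroendocrine (9 of 9 genes lower, 2 called; list mean -0.35 to -0.06 in knockout and 0.16 to 0.25 in control) and tuft cell lists (8 of 8 lower, 0 called; -0.27 to -0.11 and 0.03 to 0.34) also separated the groups. In such bulk tissue, fewer cells of a type and less RNA per cell cannot be told apart. The part of the enteroendocrine and tuft markers in the results below was not tested, whereas ileum, enterocyte and crypt lists were used as covariates. The ileum list mean was higher in knockouts 2 to 5 than in any control, so that fit cannot tell ileum content and knockout apart. A covariate that follows the group also widens the SE. Whether the knockout itself changed the list means was not tested. In the mature enterocyte list 10 of 12 genes had lower values (list mean -0.30 to 0.01 in knockout and -0.06 to 0.17 in control), and in the proliferating crypt list 11 of 11 had higher values (-0.47 to 0.76 and -0.91 to 0.42). Fibroblast genes had higher values in 7 of 7 (-0.09 to 0.59 and -0.86 to 0.12) and T cell genes lower values in 6 of 6 (-0.68 to 0.25 and -0.28 to 0.79). The means of these 4 lists overlapped between the groups, 0 of their genes were called, and the part of the fibroblast and T cell genes was not tested.

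Of the 10 genes, 0 were called at an adjusted p under 0.05 in limma, against 76 of all genes (0.343%). At an unadjusted p under 0.05 there were 2 of 10, Sptlc2 and Cers5, both higher in knockout, against 12.1% of all genes. The values of 7 genes were higher and those of 3 lower, with a median difference of 0.07, while the median over all genes was -3.54e-04. Differences ran from -0.17 for Sgms1 to 0.40 for Cers5. Sptlc2 alone of the 10 had groups without overlap, against 2.77% of all genes. With 1 array left out in turn, the count of members called stayed at 0 each time. Without knockout 1 the differences were -0.09 for Sptlc1, 0.04 for Cers2, 0.11 for Cers6, -0.15 for Sgms1, 0.12 for Sgms2 and -0.04 for Asah2, and those of the other members are given with each gene.

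**Figure D1:**
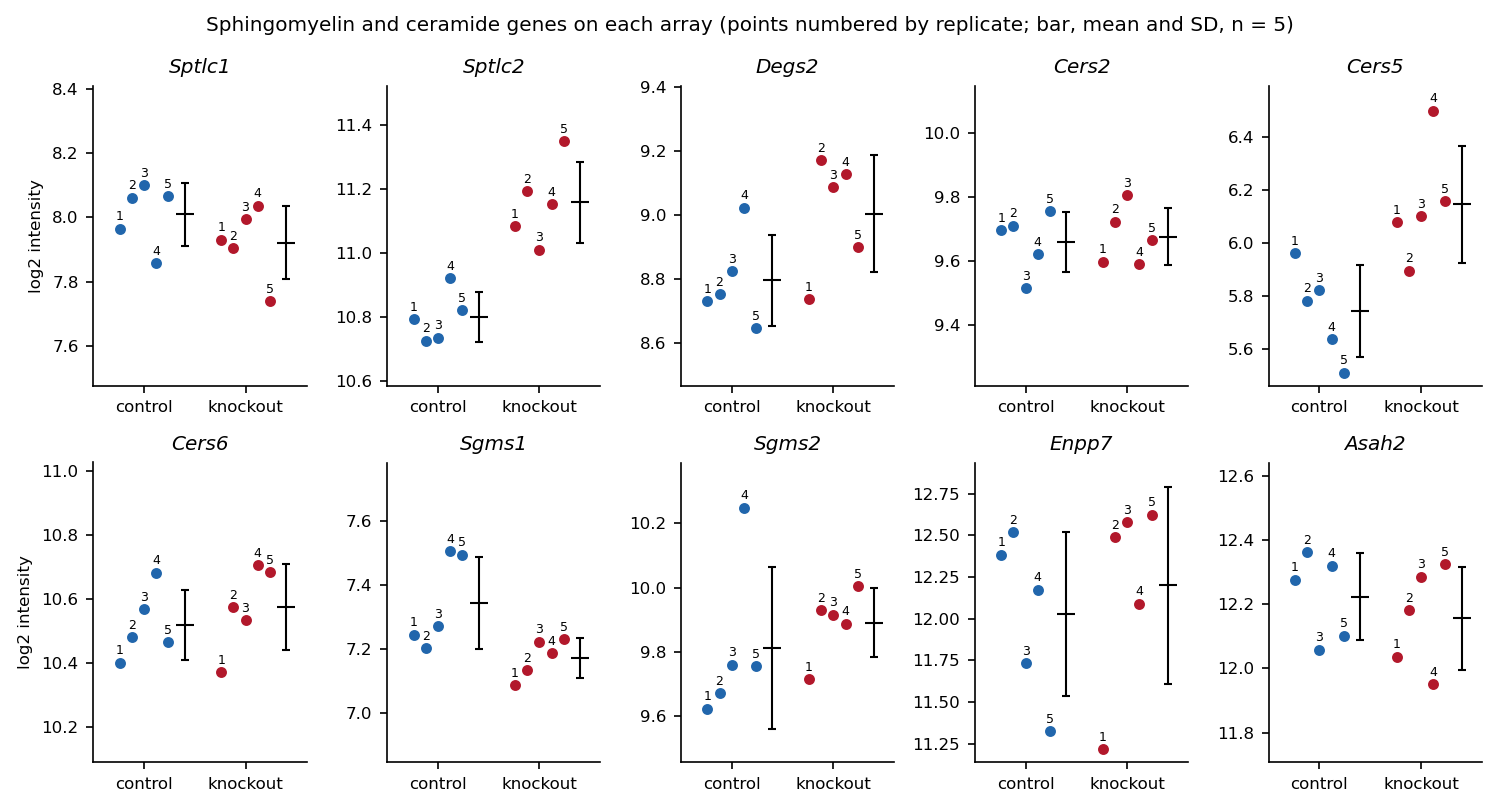
Each panel plots the log2 intensity of 1 gene on the 10 arrays, controls in blue and knockouts in red, with points numbered by replicate and the bar at the mean with its SD (n = 5 per group); the scale differs between panels. The knockout arrays of Sptlc2 (11.01 to 11.35) lie above all controls (10.73 to 10.92), and knockout 1 and control 5 have the lowest values of Enpp7.

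The first step of the pathway is carried out by serine palmitoyltransferase, whose core is a pair of proteins from Sptlc1 and Sptlc2, the latter holding the catalytic lysine that binds pyridoxal phosphate. Sptlc2 was at 11.08, 11.19, 11.01, 11.15 and 11.35 in knockouts 1 to 5 and at 10.79, 10.73, 10.74, 10.92 and 10.82 in controls 1 to 5. The groups did not overlap, although the lowest knockout and the highest control were close. The means were 11.16 ± 0.13 and 10.80 ± 0.08 (SD, n = 5 each), a difference of 0.36 (SE 0.09, 95% confidence interval 0.17 to 0.54) or 1.28-fold (1.13 to 1.46). Its limma adjusted p was 0.0992, so it did not pass the threshold, and 1.18% of all genes had an adjusted p under 0.1. Whether the ileum genes play a part in this difference was not tested, and the covariate fit given next cannot decide it. Without knockout 1 the difference was 0.38 (SE 0.09). With the ileum list mean as a covariate it was 0.30 (SE 0.11, adjusted p = 0.558), with the enterocyte list 0.37 (SE 0.11, adjusted p = 0.318) and with the list of proliferating crypt genes 0.44 (SE 0.10, adjusted p = 0.0745).

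Sptlc1, the partner subunit, was at 7.93, 7.90, 7.995, 8.04 and 7.74 in knockouts and at 7.96, 8.06, 8.10, 7.86 and 8.07 in controls. The arrays of both groups were interleaved, with a difference of -0.09 (SE 0.09, interval -0.27 to 0.10, adjusted p = 0.744). The interval leaves room for changes from 0.827-fold to 1.07-fold. The log ratio of Sptlc1 to Sptlc2 within an array was -3.24 ± 0.23 in knockout and -2.79 ± 0.17 in control (SD, n = 5 each), a shift of -0.45. The exact two-sided permutation p of that shift was 0.0159, and 0.0794 after adjustment over the 8 pairs of members that share a role. An exact p cannot fall below 0.00794 with 5 against 5 arrays. No pair could therefore pass the adjusted threshold over 8 pairs on its own, however large its shift. The adjusted value thus cannot decide whether the partner subunits changed unequally.

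The stretches of 250 bases ahead of the start sites of Sptlc2 (GRCm38.p6, chr12:87388356-87388605, minus strand) and Sptlc1 (chr13:53377362-53377611, minus strand) are shown because these are subunits of 1 enzyme with different values. They were taken from RefSeq and are written 5′ to 3′ on the gene's strand. Capitals mark 4 motifs, searched on both strands: the CCAAT box, the GC box with the letters GGGCGG, a motif of GATA factors with the letters AGATAA, and the E-box with the letters CACGTG. A motif on the opposite strand appears as its reverse complement, so ATTGG marks a CCAAT box read backwards, and CCGCCC marks a GC box. Matches of different motifs do not overlap in the stretches printed.
Sptlc2: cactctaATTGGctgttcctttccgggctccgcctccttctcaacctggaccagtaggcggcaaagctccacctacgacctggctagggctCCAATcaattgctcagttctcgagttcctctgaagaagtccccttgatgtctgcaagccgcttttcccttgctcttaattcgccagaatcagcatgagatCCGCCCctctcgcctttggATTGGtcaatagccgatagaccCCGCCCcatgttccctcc
Sptlc1: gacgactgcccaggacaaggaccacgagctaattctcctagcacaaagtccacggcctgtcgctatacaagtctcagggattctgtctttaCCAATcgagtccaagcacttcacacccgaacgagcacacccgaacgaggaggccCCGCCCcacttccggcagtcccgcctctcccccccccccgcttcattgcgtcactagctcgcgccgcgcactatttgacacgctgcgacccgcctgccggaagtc
The Sptlc2 stretch holds 3 CCAAT matches, which begin 243, 159 and 40 bases before the start, and 2 GC boxes. The Sptlc1 stretch has 1 match of each, and neither has the other motifs. Over 32817 such stretches of mouse genes, 33.8% hold at least 1 CCAAT and 2.79% hold 3 or more, while 32.7% hold a GC box. These matches describe the letters and show no binding.

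Other genes acting on the early steps were taken from a wider sphingolipid list of 55 genes, of which 50 were analysed here. Of the 50, 0 were called in limma, against 0.343% of all genes. At an unadjusted p under 0.05 there were 9 of 50 (18%), 6 higher and 3 lower, against 12.1% of all genes. In the group of regulators and early enzymes, 4 of 6 values were higher and 2 lower. Sptssb, a small subunit that stimulates serine palmitoyltransferase, was at 5.49 to 5.995 in knockout and 4.94 to 5.60 in control, and 4 of 5 knockouts lay above all controls. Its difference was 0.45 (SE 0.15, adjusted p = 0.256), which became 0.24 (SE 0.17) with the ileum covariate and 0.33 (SE 0.11) with 16 added before log2. The mean of Sptssb was at percentile 43.8 of the genes tested, and whether it exceeded background was not tested. Ormdl2, of a family that restrains the enzyme, was at 9.75 to 10.05 against 9.50 to 9.82, a difference of 0.26 (SE 0.09, adjusted p = 0.288). The 2 lower values were those of Ormdl3, of the same restraining family, at -0.23 (SE 0.18), and of Kdsr, the reductase of the next step, at -0.27 (SE 0.17).

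Degs2 encodes a desaturase and hydroxylase that makes phytoceramide, a form abundant in the gut epithelium. It was at 8.74, 9.17, 9.09, 9.13 and 8.90 in knockouts and 8.73, 8.75, 8.82, 9.02 and 8.65 in controls. Knockouts 2, 3 and 4 were above every control, while knockouts 1 and 5 were among the controls. The difference was 0.21 (SE 0.11, interval -0.02 to 0.44, adjusted p = 0.467). It was 0.28 (SE 0.10) without knockout 1. With covariates it was 0.07 (SE 0.12, ileum), 0.11 (SE 0.12, enterocyte) and 0.14 (SE 0.13, crypt). Degs1, the general ceramide desaturase, had the opposite sign, at -0.26 (SE 0.15, adjusted p = 0.533). Its value was 8.06 in knockout 1 and 7.20 to 7.43 in the other knockouts, against 7.59 to 8.06 in controls. Without knockout 1 the Degs1 difference was -0.40 (adjusted p = 0.117), with the ileum covariate it was 0.06 (SE 0.13), and with the enterocyte covariate -0.07.

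Ceramide synthases differ in the fatty acid they attach, with CERS2 preferring very long chains and CERS5 and CERS6 palmitate. Cers5 was at 6.08, 5.90, 6.10, 6.50 and 6.16 in knockouts and at 5.96, 5.78, 5.82, 5.64 and 5.51 in controls. Of the knockouts, 4 of 5 exceeded all controls, and knockout 2 lay just under control 1. The difference was 0.40 (SE 0.12, interval 0.14 to 0.67), or 1.32-fold, with an adjusted p of 0.195. It was 0.42 (SE 0.13) without knockout 1 and 0.38 (SE 0.16) with the ileum covariate, but 0.23 (SE 0.12) with the enterocyte covariate. Its mean was at percentile 52.4 of the genes tested, near their median of 5.81, and whether it exceeded background was not tested. With 16 added before log2 the difference was 0.32 (SE 0.09).

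Cers6 was at 10.37, 10.57, 10.53, 10.70 and 10.68 in knockouts and 10.40, 10.48, 10.57, 10.68 and 10.46 in controls. The groups covered nearly the same range, and the difference was 0.05 (SE 0.09, interval -0.14 to 0.25, adjusted p = 0.867). Cers2 was at 9.60, 9.72, 9.80, 9.59 and 9.66 against 9.70, 9.71, 9.51, 9.62 and 9.75, with a difference of 0.02 (SE 0.08, adjusted p = 0.965). Its 95% interval of -0.16 to 0.19 spans 0.896-fold to 1.14-fold in this fit. The interval was -0.25 to 0.21 with the ileum covariate and -0.11 to 0.29 with the enterocyte covariate. A second, dimmer Cers2 probe set gave 0.04 (SE 0.09). Within arrays, Cers5 shifted against Cers2 by 0.39 and against Cers6 by 0.35 (exact p = 0.0397 for each, 0.0794 over the 8 pairs). Cers3, a ceramide synthase best known from skin, was at 0.20 (SE 0.09, adjusted p = 0.433).

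**Figure D2:**
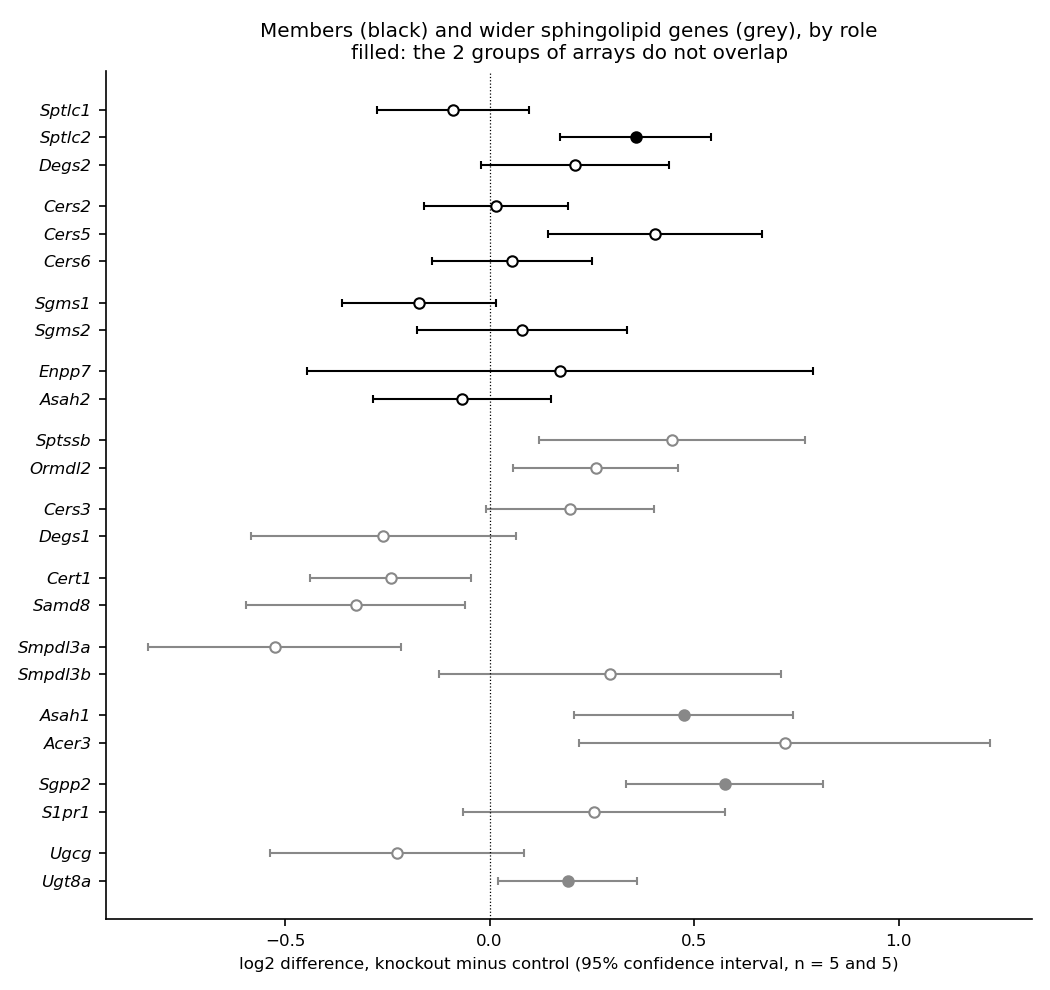
Points are log2 differences, knockout minus control, with 95% confidence intervals from limma (n = 5 and 5), grouped by role, members in black and the wider sphingolipid genes named by rule in grey. Filled points mark genes whose groups do not overlap (Sptlc2, Asah1, Sgpp2 and Ugt8a); none of the genes drawn passed an adjusted p of 0.05.

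Sphingomyelin synthases are the members that consume PC. SGMS1 works in the Golgi and SGMS2 largely at the plasma membrane. Sgms1 was at 7.09, 7.13, 7.22, 7.19 and 7.23 in knockouts and at 7.25, 7.20, 7.27, 7.51 and 7.50 in controls. All 5 knockouts were below the control mean and 3 of them below every control, with controls 4 and 5 the highest. The difference was -0.17 (SE 0.09, interval -0.36 to 0.02, adjusted p = 0.464), or 1.13-fold lower. It was -0.19 (SE 0.11) with the ileum covariate and -0.09 (SE 0.10) with the crypt covariate.

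Sgms2 was at 9.71, 9.93, 9.92, 9.89 and 10.00 in knockouts and at 9.62, 9.67, 9.76, 10.25 and 9.75 in controls. Control 4 was the highest array of all, and the other controls lay below 4 of the 5 knockouts. The difference was 0.08 (SE 0.12, interval -0.18 to 0.34, adjusted p = 0.850), and 0.19 without control 4. The log ratio of Sgms1 to Sgms2 was -2.72 ± 0.07 in knockout and -2.47 ± 0.18 in control (SD, n = 5 each). That shift of -0.25 had an exact permutation p of 0.0317, and 0.0794 over the 8 pairs.

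Genes that bring ceramide to these enzymes or resemble them had 2 higher and 2 lower values among 4. Cert1, the protein that carries ceramide from the endoplasmic reticulum to the Golgi, was at 8.86 to 9.29 in knockout and 9.28 to 9.44 in control. The highest knockout, number 3, exceeded only control 5, and the difference was -0.24 (SE 0.09, adjusted p = 0.311). Samd8, a relative of the sphingomyelin synthases that makes ceramide phosphoethanolamine, was at 9.03 to 9.50 against 9.17 to 9.78, a difference of -0.33 (SE 0.12, adjusted p = 0.314), and of -0.15 (SE 0.13) with the enterocyte covariate. The higher values were those of Gltp, a glycolipid transfer protein, at 0.21 (SE 0.14), and Cptp, which transfers ceramide 1-phosphate, at 0.13 (SE 0.09). Under 22 other settings the differences ran from -0.21 to -0.09 for Sgms1, -0.37 to -0.17 for Cert1 and -0.42 to -0.15 for Samd8.

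Enpp7 encodes alkaline sphingomyelinase, the brush border enzyme that digests sphingomyelin in the lumen. It was at 11.22, 12.49, 12.58, 12.09 and 12.62 in knockouts and at 12.38, 12.52, 11.73, 12.17 and 11.32 in controls. Knockout 1 and control 5 were lowest, and the other arrays of both groups overlapped. Its difference was 0.17 (SE 0.28, interval -0.45 to 0.79, adjusted p = 0.867), which leaves room for anything from 0.734-fold to 1.73-fold. Its SD within groups, 0.54, stood at percentile 98.3 of all genes, whereas those of Sptlc1, Sptlc2, Cers2, Cers6 and Sgms1 lay at percentiles 5.41 to 17.2. The 2 arrays with the lowest Enpp7 were also those with the lowest ileum list means, -1.02 in knockout 1 and -0.67 in control 5. The sign of the difference changed with the arrays and covariates used. It was 0.42 (SE 0.23) without knockout 1, -0.00309 (SE 0.27) without control 5, 0.24 (SE 0.18) without both, and -0.46 (SE 0.22, interval -0.95 to 0.03, adjusted p = 0.704) with the ileum covariate.

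**Figure D3:**
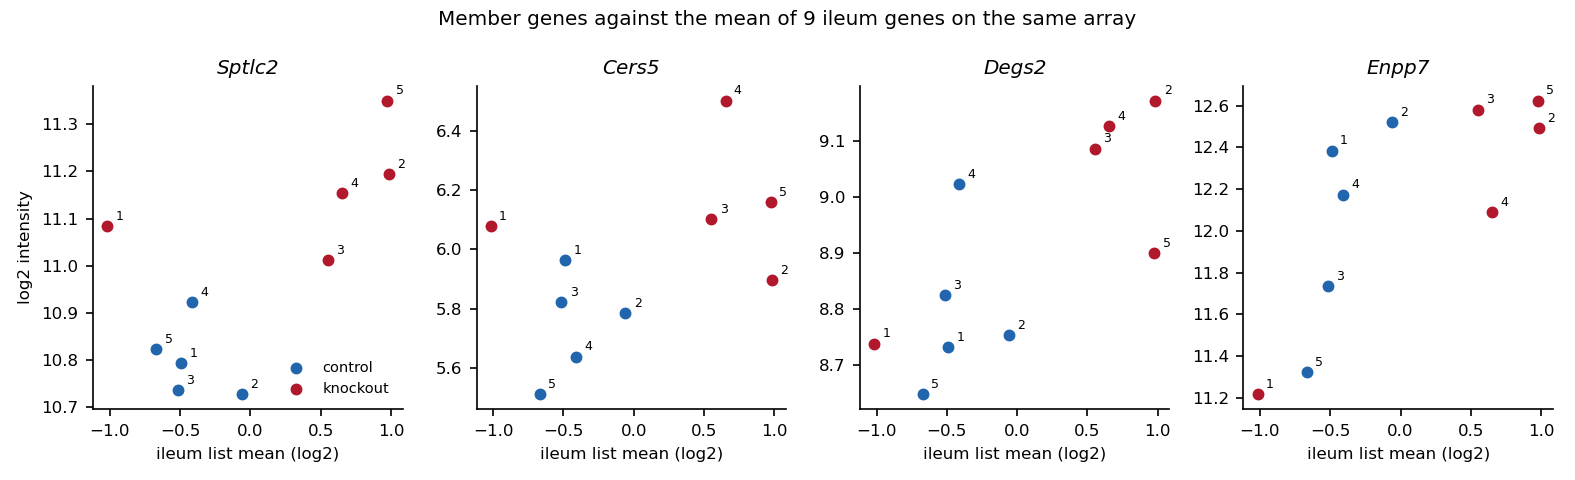
Each panel plots the log2 intensity of 1 gene against the mean of 9 ileum genes on the same array, centred per gene, with controls in blue, knockouts in red and replicate numbers beside the points. Knockout 1 sits at the left, at an ileum mean of -1.02, with Sptlc2 at 11.08 and Enpp7 at 11.22.

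Asah2 encodes neutral ceramidase, also of the brush border, which splits the ceramide that Enpp7 releases. It was at 12.04, 12.18, 12.29, 11.95 and 12.33 in knockouts and at 12.28, 12.36, 12.06, 12.32 and 12.10 in controls. Values were interleaved, with a difference of -0.07 (SE 0.10, interval -0.29 to 0.15, adjusted p = 0.847). Knockouts 1 and 4 lay below every control. Knockouts 1 and 4 and controls 3 and 5 were the lowest arrays of Asah2 and also of Enpp7, over a narrower range in Asah2. With the enterocyte covariate and with the crypt covariate the difference was 0.04 each time, and with the ileum covariate it was -0.17.

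The stretches ahead of these enzymes of luminal digestion, Enpp7 (GRCm38.p6, chr11:118987931-118988180, plus strand) and Asah2 (chr19:32103141-32103390, minus strand), are shown because the enzymes act in sequence and the size of the spread between arrays differed. Source, orientation and capitals are as above.
Enpp7: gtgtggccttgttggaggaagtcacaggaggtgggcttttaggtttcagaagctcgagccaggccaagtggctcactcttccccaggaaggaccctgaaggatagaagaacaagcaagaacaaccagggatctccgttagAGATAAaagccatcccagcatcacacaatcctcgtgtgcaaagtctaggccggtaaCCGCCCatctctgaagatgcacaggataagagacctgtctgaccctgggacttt
Asah2: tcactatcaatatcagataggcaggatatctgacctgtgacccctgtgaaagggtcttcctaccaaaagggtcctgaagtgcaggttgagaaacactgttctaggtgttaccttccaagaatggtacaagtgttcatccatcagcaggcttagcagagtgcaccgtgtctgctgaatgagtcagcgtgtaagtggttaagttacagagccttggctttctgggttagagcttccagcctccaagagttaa
The Enpp7 stretch holds 1 AGATAA, which begins 110 bases before the start, and 1 GC box. The Asah2 stretch holds none of the 4 motifs. AGATAA occurs in 9.99% of the 32817 stretches and CACGTG in 6.02%. There were 5 CpG pairs ahead of Enpp7 and 2 ahead of Asah2, against 11 for Sptlc2, 22 for Sptlc1 and a median of 6 over all stretches.

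Of the other sphingomyelinases and ceramidases, 7 and 4 genes, 0 passed the threshold, and the 2 with the smallest p in each group are described. Asah1, the lysosomal acid ceramidase, was at 8.66 to 9.15 in knockout and 8.04 to 8.58 in control, without overlap. Its difference was 0.47 (SE 0.12, interval 0.21 to 0.74), or 1.39-fold, with an adjusted p of 0.132. It was 0.27 (SE 0.11, adjusted p = 0.506) with the enterocyte covariate. Acer3, an alkaline ceramidase, was at 6.17, 7.15, 6.69, 7.30 and 6.15 in knockouts against 5.57 to 6.31 in controls. Knockouts 2, 3 and 4 were above every control, and the difference was 0.72 (SE 0.23, adjusted p = 0.234). It was 0.85 (adjusted p = 0.111) without knockout 1. With covariates it was 0.28 (SE 0.19, enterocyte), 0.31 (SE 0.22, crypt) and 0.46 (SE 0.28, ileum). Of the 4 ceramidase genes outside the members, 3 had higher values and 1 a lower value.

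Among 7 sphingomyelinases, 4 values were higher and 3 lower. Smpdl3a, related to acid sphingomyelinase and known as a nucleotide phosphodiesterase, was at 8.61 in knockout 1 and 7.92 to 8.22 in the other knockouts, against 8.44 to 9.003 in controls. The difference was -0.53 (SE 0.14, adjusted p = 0.147). It was called without knockout 1, at -0.63 (SE 0.12, adjusted p = 0.0359), a fit that called 268 of all 22180 genes. That was 1 of 22 other settings, and the rest did not call it. With the ileum covariate the difference was -0.27. A second, dimmer probe set gave -0.12 (SE 0.08). Smpdl3b, a membrane-anchored relative, was at 9.77 to 10.90 against 9.78 to 10.44, with a difference of 0.29 (SE 0.19, adjusted p = 0.591), and 0.16 to 0.44 with 1 array left out. It was 0.68 (SE 0.15, adjusted p = 0.186) with the enterocyte and 0.67 (SE 0.16, adjusted p = 0.101) with the crypt covariate.

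Downstream of ceramidase, sphingosine can be phosphorylated to the signalling lipid sphingosine 1-phosphate, and Sgpp2 encodes a phosphatase that reverses this step. Sgpp2 was at 10.30 to 10.58 in knockout and 9.53 to 10.07 in control, so every knockout array was above every control. Its difference of 0.58 (SE 0.11, interval 0.33 to 0.82, 1.49-fold) came nearest to the threshold of the 50 wider genes, with an adjusted p of 0.0545. It passed under 5 of 22 other settings, among them the omission of knockout 1 (0.60, SE 0.12, adjusted p = 0.0372), and the adjusted p ranged from 0.0263 to 0.323. In the group of 14 genes for this lipid, 11 values were higher and 3 lower, and S1pr1, a receptor for it, had a difference of 0.26 (SE 0.15, adjusted p = 0.532), and of 0.14 without control 5.

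Ceramide is also the base for glycosphingolipids, where 6 of 11 values were higher and 5 lower. Ugcg, which adds glucose to ceramide, was at 9.93 to 10.4996 in knockout and 10.22 to 10.89 in control, with a difference of -0.23 (SE 0.14, adjusted p = 0.576), and of 0.01 (SE 0.13) with the enterocyte covariate. Ugt8a, which adds galactose, was at 5.29 to 5.52 against 5.11 to 5.28. The groups did not overlap, though only narrowly, and the difference was 0.19 (SE 0.08, adjusted p = 0.352). Under 22 other settings it ran from 0.14 to 0.27. The mean of Ugt8a was at percentile 38.5 of the genes tested, and whether it exceeded background was not tested. Over the whole wider list 33 values were higher and 17 lower, with a median of 0.07, and 3 of 50 genes (Asah1, Sgpp2 and Ugt8a) had groups that did not overlap, or 6% against 2.77% of all genes.

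**Figure D4:**
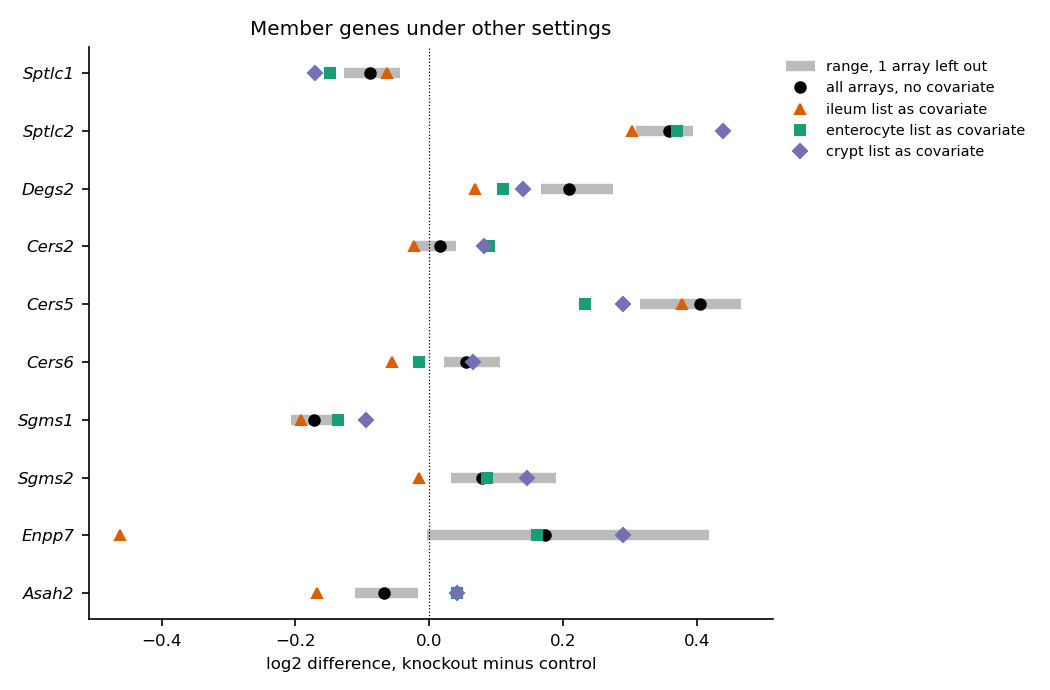
Log2 differences, knockout minus control, of the 10 members under other settings: black circles for all arrays, grey bars for the range with 1 array left out in turn, and coloured points for fits with a marker list mean as covariate. Sptlc2 stays between 0.30 and 0.44 across the points drawn, whereas Enpp7 moves from -0.46 to 0.42.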

How the data were processed

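RNA from 10 jejunum samples was measured on Affymetrix arrays, from 400 ng of total RNA per sample. The authors made linear intensities (1.8 to 15278.7, as deposited) with RMA in Affymetrix Expression Console 1.4.1.46, per the submitters' processing notes. Its further settings were not given in the sources used here. RMA brings arrays to a shared distribution, so a shift common to most transcripts would not be visible. Array medians were 45.8 to 48.1, and correlations between arrays 0.972 to 0.993. Detection calls were not used here. Precision is limited by the number of arrays.

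Here log2 was taken without a pseudocount. Of 41345 probe sets, 23521 had exactly 1 gene symbol in GEO's platform annotation. Each gene kept the probe set with the highest mean over the 10 arrays, which left 22180 genes. Groups came from sample titles. The test was limma 3.58.1 under R 4.3.3 (lmFit, eBayes, group as the only term), with Benjamini-Hochberg adjustment over all 22180 genes and a threshold of 0.05. Exact permutation tests were two-sided.

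Named genes are the 10 members, Pcyt1a, and in each of 7 role groups of a wider list the 2 genes with the smallest p plus any called. The members, lists and rules were chosen with earlier results of these data known. Alternatives were 2 array scalings, a filter that drops the dimmest 30% of genes, probe set means, an added 16 before log2, trend and robust eBayes, array weights, a replicate block, 3 marker list covariates (ileum, mature enterocyte, proliferating crypt), a threshold of 0.1 and omission of each array. The omission of knockout 1 and control 5 together was added after seeing the data. Marker lists were summarised as the mean of centred log2 values. The role of the same replicate numbers in both groups was checked by correlating deviations from the group means. Promoter stretches were matched by symbol for all 10 members in RefSeq's table (GRCm38.p6), where Cers2, Sgms1 and Sgms2 have several starts.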

Additional observations from a re-analysis of the deposited data

Results flagged for a closer look

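Within groups of 5 arrays, 82 groups were examined (25 genes and 16 marker lists, in knockout and in control), and 8 held an array whose gap to its nearest neighbour exceeded Dixon's 95% critical share of the group's range; chance marks about 1 in 20. Sgms2 in control 4 was at 10.25, against 9.62 to 9.76 in the other controls. Degs1 in knockout 1 was at 8.06, while the other 4 knockouts lay at 7.20 to 7.43. S1pr1 in control 5 was at 5.403, against 5.88 to 6.06. Ugcg in knockout 4 was at 9.93, against 10.36 to 10.4996. The ileum list mean of knockout 1 was -1.02, with the rest of the group at 0.55 to 0.98, and its mean of proximal intestine genes was 0.34, against -0.30 to -0.13. The smooth muscle list mean of control 4 was 1.17, against -0.42 to -0.07 in the other controls. The macrophage list mean of control 5 was -0.93, against 0.10 to 0.35.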

How the results depend on the processing

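Of 24 named genes besides Pcyt1a, 17 kept their direction under every other setting run (22 settings, or 21 for Cers3, which is among the dimmest 30% of genes). The others were the members Cers2, Cers6, Sgms2, Enpp7 and Asah2 and the wider genes Degs1 and Ugcg. The wider genes named were picked for small p in these data, which favours a stable direction. The dim gene filter, trend and robust eBayes and the replicate block leave each difference unchanged, so they could not reverse a sign. Reversals were Cers2 (-0.0227 with the ileum covariate and -0.0201 to 0.0399 with 1 array left out), Cers6 (-0.0555 with the ileum and -0.0145 with the enterocyte covariate), Sgms2 (-0.0152 with the ileum covariate), Enpp7 (-0.46 with the ileum covariate and -0.00309 to 0.42 with 1 array left out), Asah2 (0.0419 with the enterocyte and 0.0423 with the crypt covariate), Degs1 (0.0597 with the ileum covariate) and Ugcg (0.0123 with the enterocyte covariate). The cause was not tested. Pcyt1a was called throughout, at -1.78 to -1.49. The members called numbered 0 under all settings except a threshold of 0.1, which gave 1 (Sptlc2). Of the wider list, 1 gene (Sgpp2) was called without the dimmest 30% of genes, with 16 added before log2, with trend and robust eBayes, with array weights and at a threshold of 0.1, and 0 to 2 with 1 array left out (Sgpp2 and Smpdl3a without knockout 1). Over all genes the 76 calls became 142 with array weights, 27 with a replicate block, 5 with the ileum covariate, 4 with the enterocyte covariate, 186 without knockout 1 and control 5 together, 261 at a threshold of 0.1 and 11 to 268 with 1 array left out. Over all genes, deviations of same-numbered arrays correlated at -0.13 to 0.12. This gave no sign of pairing but cannot exclude a link limited to fewer genes. With the replicate block 0 members and 0 wider genes were called. The array scalings moved the median of all genes by less than 0.1.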
